A study of Malus domestica with 6 samples.

Results

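The 86 genes described here are the abundant transcripts of apple pulp that were strongly higher in Jonagold than in Granny Smith. They are 86 of the 46558 genes listed for the series, and they were chosen from the measured values. A gene was taken when its mean over the 3 Jonagold libraries was at least 100 FPKM, its mean over the 3 Granny Smith libraries was at least 0.05 FPKM, and the ratio of the means, Jonagold over Granny Smith, was at least 6. FPKM, a unit of transcript level, divides the reads of a gene by its length and by a measure of the depth of the library. Levels of genes of different length can thus be compared. Of the 979 genes that averaged 100 FPKM or more in Jonagold, 99 (10.1%) met the ratio. None of these had a mean below 0.05 FPKM in Granny Smith. Leaving out 13 of them, which were MD10G1328100, MD10G1179100 and genes that the study tabulated for its aroma pathways, gave the 86 members. Because the ratio between the cultivars chose the members, it is given below as a description and is not tested.

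RNA-seq was carried out on the pulp of unbagged Jonagold apples, labelled red in skin colour, and of unbagged Granny Smith apples, labelled green, with 3 libraries per cultivar. The fruits were harvested ripe, from trees on a shared rootstock in 1 orchard and season. Each library was a biological replicate made from several pooled fruits, so spread among fruits of a cultivar is averaged within a library. Cultivar is the only factor, and genotype, ripening state and skin colour cannot be told apart as sources of a difference. The pulp label was not checked against marker genes, because the identifiers of the table carry no gene names and 0 of them matched the annotation table used here.

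Apple is a climacteric fruit, in which a rise in ethylene at ripening switches on softening, colour and aroma genes. Jonagold is a large, aromatic cultivar bred from Golden Delicious and Jonathan. Granny Smith is a late, acid, green cultivar that ripens slowly and makes little aroma when picked. In ripe fruit a small number of very abundant transcripts fill much of an RNA library, which is why the share of the library that a gene set takes is given here beside its ratio. In bulk pulp, fewer cells of a type and less RNA per cell cannot be told apart.

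In each library the FPKM values were whole numbers of reads scaled by a factor of that library and by the length of the gene, so reads could be recovered for all 34279 genes above 0. The recovered reads summed to 14925751 to 17427102 per Jonagold library and to 17730347 to 17884310 per Granny Smith library. FPKM summed to 755644 to 800812 per Jonagold library, against 554856 to 599617 per Granny Smith library. By the library factors fitted in that recovery, a read in the same gene was worth 1.29 to 1.46 times as much FPKM in the Jonagold libraries as in Granny Smith replicate 1. In the Granny Smith libraries it was worth 0.942 to 1 times as much. The median gene averaging 1 FPKM or more nevertheless had nearly equal levels in both cultivars, with a log2 ratio of 0.01 as deposited.

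The members filled a sizeable part of each Jonagold library and a small part of each Granny Smith library. Their share of the summed FPKM was 11.7%, 13.1% and 12.5% in Jonagold replicates 1, 2 and 3, against 1.25%, 1.58% and 1.12% in Granny Smith replicates 1, 2 and 3. The mean share was 12.4 ± 0.723% in Jonagold and 1.32 ± 0.234% in Granny Smith (SD, n = 3 each). The lowest Jonagold share lay far above the highest Granny Smith share, which the choice of members fixes. Counted in reads, which weights each gene by its length, the members took 9.58 ± 0.437% of a Jonagold library and 0.953 ± 0.166% of a Granny Smith library (SD, n = 3 each).

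**Figure D1:**
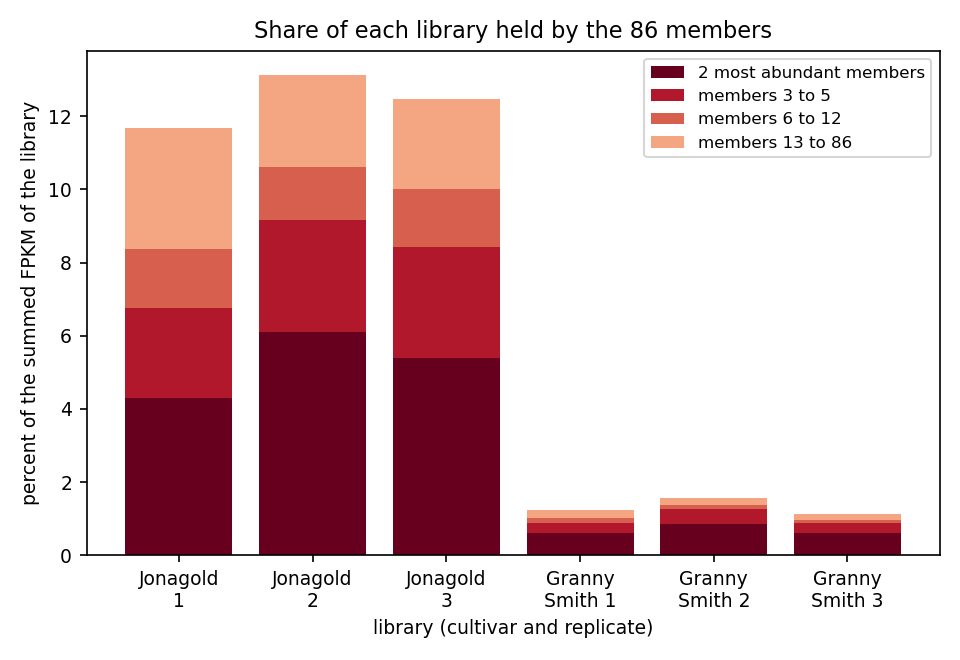
Percent of the summed FPKM of each library (vertical axis) held by the members, for the 3 Jonagold and the 3 Granny Smith libraries, stacked by the order of abundance in Jonagold. The Jonagold bars reach 11.7% to 13.1% and the Granny Smith bars 1.12% to 1.58%.

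Most of this share came from a handful of genes. The most abundant member alone gave 23.2% of the members' summed FPKM in Jonagold, and the 12 most abundant gave 77.8%. The 2 most abundant members held 5.28% of an average Jonagold library and 0.691% of an average Granny Smith library. The remaining 74 members beyond the 12 most abundant held 2.76% in Jonagold and 0.201% in Granny Smith. Without the 2 most abundant members, the others still took 7.16 ± 0.192% of a Jonagold library and 0.625 ± 0.0994% of a Granny Smith library (SD, n = 3 each). The SD among the Jonagold libraries was smaller without these 2, but this did not extend to the less abundant members. Without the 5 most abundant, the others took 4.31 ± 0.542% of a Jonagold library (SD, n = 3). Their shares were 4.94%, 3.96% and 4.04% in Jonagold replicates 1, 2 and 3, whereas replicate 1 had the lowest share of the 2 most abundant. The 13 left-out genes would have added 5.38 ± 0.952% in Jonagold and 0.162 ± 0.0505% in Granny Smith (SD, n = 3 each).

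The members' FPKM summed to 96325 ± 8025 in Jonagold and 7720 ± 1624 in Granny Smith (SD, n = 3 each). The whole Jonagold libraries summed on average to 189704 FPKM more than the Granny Smith libraries. The members' own excess of 88604 FPKM equals 46.7% of that gap. The gap was measured on the deposited scale, on which a read is worth more FPKM in Jonagold. Setting the totals equal removes the gap by construction, so nothing is read from its absence there. That step moves the median log2 ratio of genes averaging 1 FPKM or more to −0.34, against 0.01 as deposited. Whether the gap reflects a difference in amount of RNA was not tested. The 32 genes chosen by the same thresholds in the other direction, with at least 100 FPKM in Granny Smith, went the other way, with 1013 ± 88.1 summed FPKM in Jonagold against 27511 ± 2576 in Granny Smith (SD, n = 3 each).

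Members took 4 of the 10 highest mean levels in Jonagold and 0 of the 10 highest in Granny Smith. Among the 100 highest genes of each cultivar, 18 were members in Jonagold and 4 in Granny Smith. The remainder of the Jonagold list of 10 held 1 of the left-out genes, MD10G1328100, and 5 genes whose ratio lay below the limit. Of the members, 15 averaged 1000 FPKM or more in Jonagold, 19 averaged 300 to under 1000 FPKM and 52 averaged 100 to under 300 FPKM. In Granny Smith 10 averaged 100 FPKM or more, 42 averaged 10 to under 100 FPKM, 26 averaged 1 to under 10 FPKM and 8 averaged less than 1 FPKM. The median member had a mean of 204 FPKM in Jonagold (range 101 to 22348) and of 12.1 FPKM in Granny Smith (range 0.0534 to 3111).

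The ratio of the means had a median of 17.8 over the members and ran between 6.07 and 2700. It was under 10 in 23 members, 10 to under 100 in 47 and at least 100 in 16. Every Jonagold library lay above every Granny Smith library in 86 of 86 members. Among the 20993 genes that averaged 1 FPKM or more over the 6 libraries, 30.4% had all Jonagold values above all Granny Smith values, and among the 979 genes of at least 100 FPKM in Jonagold 58.8% did. The thresholds on the means largely fix the count for the members, so nothing is read from it. With all libraries set to equal FPKM totals, 64 of the 86 members still met the thresholds, and 1 of them, MD13G1161400, then overlapped between the cultivars. As deposited, in 64 of the 86 members even the lowest Jonagold library was at least 6 times the highest Granny Smith library. That held for 3.64% of the 20993 genes and for 7.56% of the 979 abundant genes, and since the ratio chose the members nothing is read from it either.

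**Figure D2:**
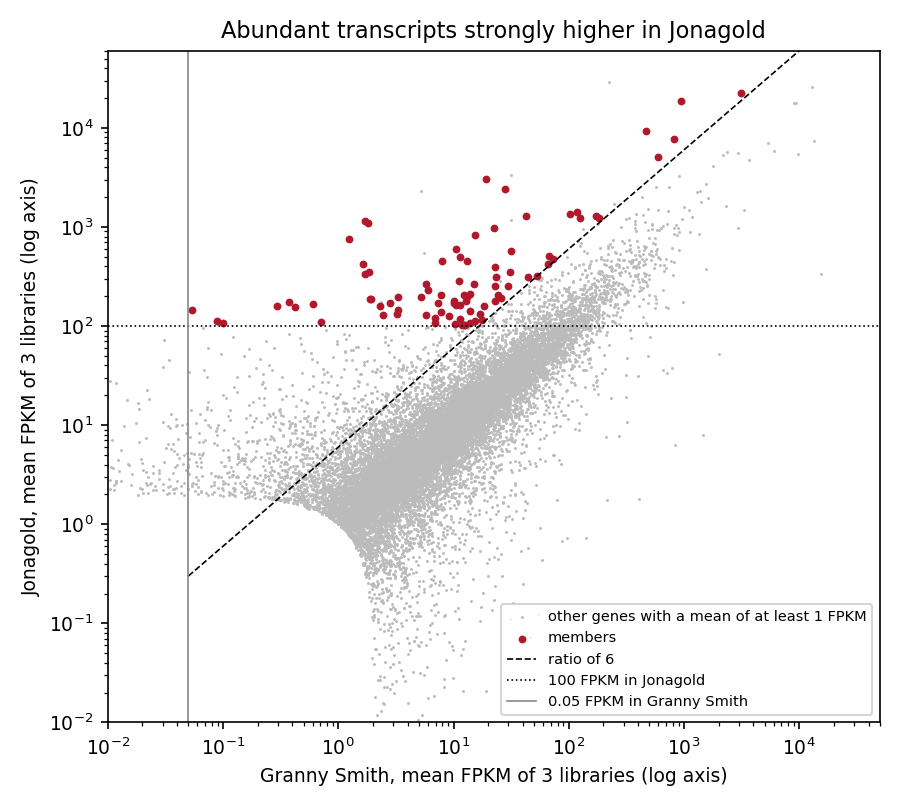
Mean FPKM of 3 Jonagold libraries (vertical, log axis) against mean FPKM of 3 Granny Smith libraries (horizontal, log axis) for the members in red and the other genes averaging 1 FPKM or more in grey, with the 3 thresholds of the choice drawn as lines. The 86 members fill the upper left corner, above 100 FPKM and the ratio of 6, and reach 22348 FPKM in Jonagold. Grey points in that corner are the 13 left-out genes.

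The 5 most abundant members were also the 5 highest members in Granny Smith, so these transcripts were plentiful in both cultivars and far more so in Jonagold. MD16G1160700, the third most abundant gene of the Jonagold libraries, had 15230, 28399 and 23415 FPKM in Jonagold replicates 1, 2 and 3, against 2638, 4033 and 2662 FPKM in Granny Smith replicates 1, 2 and 3. Its ratio was 7.18 as deposited and 5.42, below the limit of 6, with all libraries set to equal FPKM totals. MD02G1139900, the fourth, had 17793, 20539 and 17433 FPKM in Jonagold, against 949, 1171 and 706 FPKM in Granny Smith, a ratio of 19.7. The lowest Jonagold library was 3.78 times the highest Granny Smith library for MD16G1160700 and 14.9 times for MD02G1139900, although MD16G1160700 was the more abundant of the pair in both cultivars.

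MD08G1232200 had 11314, 8046 and 8692 FPKM in Jonagold and 807, 281 and 325 FPKM in Granny Smith. Granny Smith replicate 1 was more than 2 times each of its partners, and without it the ratio of 19.9 became 30.8. MD13G1161400 varied most among the 5. It had 1658, 11678 and 9561 FPKM in Jonagold, against 449, 1517 and 479 FPKM in Granny Smith. Its lowest Jonagold library was only 1.09 times its highest Granny Smith library, so the cultivars nearly touched as deposited, and its ratio of 9.36 became 16.4 without Granny Smith replicate 2. MD08G1086300 was steadier, with 5713, 4781 and 4638 FPKM in Jonagold and 466, 612 and 702 FPKM in Granny Smith, a ratio of 8.50.

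A pair of genes that were among the 25 most abundant in Jonagold were low in Granny Smith. MD16G1160500 had 2697, 3050 and 3315 FPKM in Jonagold, against 11.9, 42.6 and 2.91 FPKM in Granny Smith. It ranked 21 in Jonagold and 5215 in Granny Smith. The 3 Jonagold libraries were close while the Granny Smith libraries differed widely, and the ratio of 158 became 408 without Granny Smith replicate 2. MD02G1091800 had 2274, 2480 and 2483 FPKM in Jonagold and 25.4, 33.0 and 26.4 FPKM in Granny Smith. Here both cultivars were tight, and its ratio of 85.4 stayed between 81.3 and 93.3 when any 1 library was left out.

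The next members lay between 1000 and 1600 FPKM in nearly all Jonagold libraries. MD01G1195200 had 1546, 1344 and 1385 FPKM in Jonagold and 158, 112 and 84.6 FPKM in Granny Smith, a ratio of 12.03. MD15G1206800 had 1446, 1218 and 1362 FPKM in Jonagold and 155, 83.3 and 68.4 FPKM in Granny Smith, a ratio of 13.1. In both, replicate 1 was the highest library of each cultivar. MD10G1304000 had 1787, 1014 and 1073 FPKM in Jonagold and 48.0, 37.8 and 43.2 FPKM in Granny Smith, a ratio of 30.04. MD07G1054400 had 1478, 1139 and 1238 FPKM in Jonagold and 187, 177 and 150 FPKM in Granny Smith, a ratio of 7.50. The short transcript MD10G1291400, of 674 bases, had 1279, 1295 and 1161 FPKM in Jonagold and 143, 131 and 101 FPKM in Granny Smith, a ratio of 9.96. None of these 5 changed its ratio by 1.5 times or more when 1 library was left out.

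**Figure D3:**
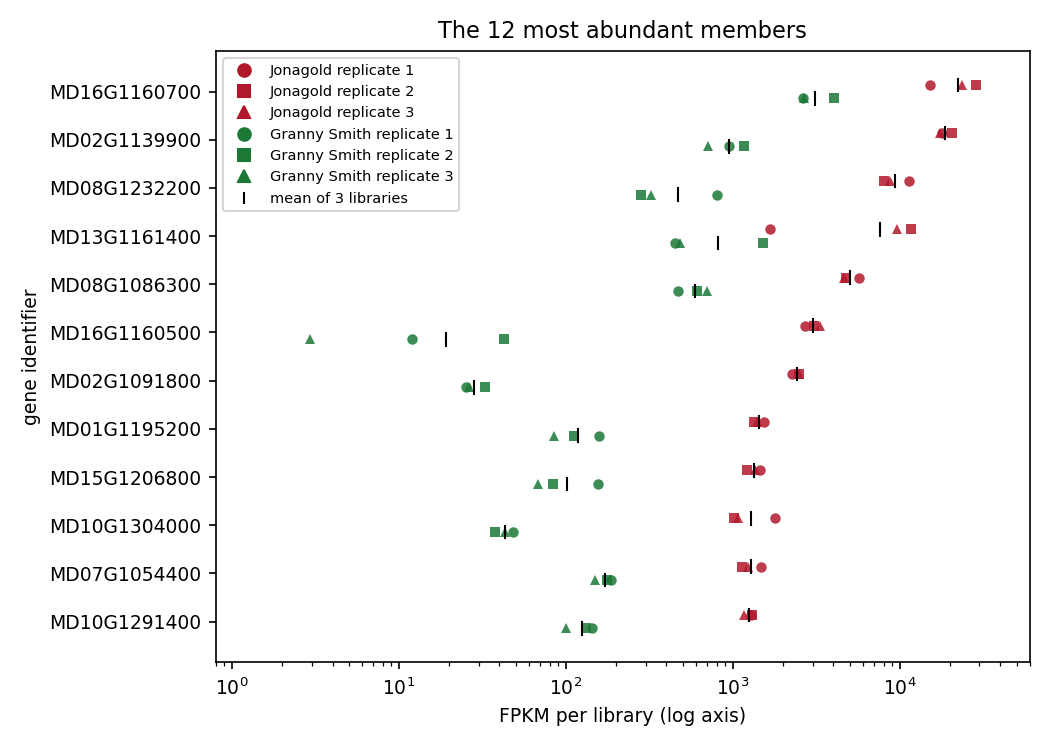
FPKM per library (horizontal, log axis) of the 12 members with the highest Jonagold mean, with Jonagold replicates in red, Granny Smith replicates in green and the cultivar means as vertical ticks. The red and green points are apart in every row, with the narrowest gap for MD13G1161400 (1658 FPKM in Jonagold replicate 1 and 1517 FPKM in Granny Smith replicate 2) and the widest for MD02G1091800 (2274 FPKM in Jonagold replicate 1 and 33.0 FPKM in Granny Smith replicate 2).

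The 6 members with the highest ratios were very low in Granny Smith, and several of their ratios rest on few reads there. MD00G1105100 had 319, 75.5 and 38.3 FPKM in Jonagold, against 0.160 FPKM, which was 2 reads, in Granny Smith replicate 1 and 0 in the other replicates. Its ratio of 2700 corresponds to a pooled read ratio with an exact 95% interval of 761 to 22717, which covers counting error only, and it became 1066 without Jonagold replicate 1. MD12G1232100 had 54.5, 125 and 159 FPKM in Jonagold, against 1, 1 and 0 reads in Granny Smith, and a pooled read ratio with an interval of 357 to 10666. For both members the size of the ratio was thus poorly determined.

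MD17G1179700 had 161, 82.0 and 78.7 FPKM in Jonagold and 0, 0.302 and 0 FPKM in Granny Smith, where replicate 2 held all of its 4 reads. The exact interval of its pooled read ratio was 408 to 3844. MD11G1189000 and MD03G1278100 were abundant in Jonagold. MD11G1189000 had 1569, 1232 and 625 FPKM there, against 0.757, 3.24 and 1.09 FPKM in Granny Smith, a ratio of 674 that became 1238 without Granny Smith replicate 2. MD03G1278100, a transcript of 309 bases, had 715, 750 and 816 FPKM in Jonagold and 0.650, 0.933 and 2.14 FPKM in Granny Smith, a ratio of 612 that became 961 without Granny Smith replicate 3. MD06G1096500, the shortest member at 186 bases, had 2001, 624 and 675 FPKM in Jonagold and 0.540, 4.65 and 0.254 FPKM in Granny Smith, where these were 2, 18 and 1 reads. Its ratio of 606 became 358 without Jonagold replicate 1 and 2769 without Granny Smith replicate 2.

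Such low counts were the exception. In Granny Smith 48 of the 86 members had at least 100 reads in every library, 4 were at 0 in at least 1 library (MD00G1105100, MD12G1232100, MD14G1087100 and MD17G1179700), and 2 had 3 reads or fewer in every library (MD00G1105100 and MD12G1232100). In Jonagold the lowest library of any member still held 277 reads. The intervals cover counting error only, because they pool the reads of the 3 libraries of a cultivar and leave out the spread among libraries. The reads carry no molecular identifiers, so copies of 1 molecule could not be told apart in the counts.

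The 6 members with the lowest ratios were genes with a clear signal in Granny Smith too. MD12G1159600 had the lowest, 6.07, with 323 ± 62.5 FPKM in Jonagold and 53.2 ± 5.58 FPKM in Granny Smith (SD, n = 3 each). It was followed by MD15G1109100 at 6.37, MD15G1158600 at 6.42, MD07G1282700 at 6.54, MD04G1057600 at 6.76 and MD02G1067200 at 7.06. MD04G1057600, of 351 bases, was the most abundant of them and had 1455, 1165 and 1076 FPKM in Jonagold, against 195, 240 and 113 FPKM in Granny Smith. The nearest genes outside the ratio limit were MD10G1298200 at 5.98, MD05G1311800 at 5.95 and MD14G1058700 at 5.72. MD05G1311800 would have been an abundant member, with 1062 ± 719 FPKM in Jonagold and 178 ± 15.02 FPKM in Granny Smith (SD, n = 3 each).

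At the limit on abundance, MD13G1276500 (101 FPKM), MD17G1248500 (103 FPKM) and MD12G1184100 (104 FPKM in Jonagold) were just inside, while MD16G1145200 (98.4 FPKM), MD03G1152100 (98.1 FPKM) and MD05G1342600 (97.2 FPKM) were just outside. Their ratios of 8.17 to 8.52 inside and 6.05 to 16.3 outside overlapped. The limit of 0.05 FPKM in Granny Smith removed no gene of at least 100 FPKM in Jonagold. The most abundant genes under it were MD01G1211500, MD12G1156000 and MD03G1111600, with 72.3, 45.7 and 38.6 FPKM in Jonagold.

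The spread within a cultivar is given beside that of other genes as a description, because the choice partly sets it. A single high Jonagold library can carry a gene past 100 FPKM, and without Jonagold replicate 1 the thresholds no longer held for 9 of the 86 members, MD00G1105100 among them. The coefficient of variation (CV, the SD over the 3 libraries as a percent of their mean) had a median of 16.6% over the members in Jonagold, against 11.4% over the 880 other genes of at least 100 FPKM. In Jonagold 51 members varied less than 1.5-fold between the highest and lowest library and 17 varied more than 2-fold. MD11G1027400 was the steadiest, with 160, 161 and 164 FPKM in Jonagold and a CV of 1.47%, against 10.8, 14.96 and 5.99 FPKM in Granny Smith. In 11 members (12.8%) 1 Jonagold library was more than 2-fold above or below both others, against 2.84% of the 880 other abundant genes. No test was made of this difference.

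Jonagold replicate 1 was the library apart in 10 of these 11 members, as it was in 24 of the 25 other abundant genes that had a library apart. It was more than 2 times both others in MD06G1096500, MD15G1120000, MD16G1035500, MD03G1215100, MD14G1151300 and MD00G1105100, and less than 1/2 of both others in MD13G1161400, MD16G1158300, MD15G1077000 and MD12G1232100. The widest CV of 107% was that of MD15G1120000, which had 1122, 178 and 206 FPKM in Jonagold and 14.3, 12.5 and 7.52 FPKM in Granny Smith. Its ratio of 43.9 became 16.8 without Jonagold replicate 1. MD16G1035500 had 909, 250 and 206 FPKM in Jonagold and 28.0, 3.93 and 7.01 FPKM in Granny Smith, so that replicate 1 was apart in both cultivars. Its ratio of 35.0 became 17.6 without Jonagold replicate 1 and 83.2 without Granny Smith replicate 1. MD14G1151300 had 313, 118 and 89.3 FPKM in Jonagold and 0.138, 0.888 and 0.0971 FPKM in Granny Smith, a ratio of 464 that became 277 without Jonagold replicate 1 and 1478 without Granny Smith replicate 2.

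Granny Smith libraries disagreed more over the members than Jonagold libraries did. The CV in Granny Smith had a median of 40.2% over the 86 members. The lower and upper quartiles of the members' Granny Smith means were 3.78 and 24.0 FPKM. This window holds 42 members and 9892 other genes that did not meet the thresholds. Within it the median CV was 35.8% over the 42 members and 12.1% over the 9892 other genes. One Granny Smith library lay more than 2-fold from both others in 16 of these 42 members (38.1%) and in 205 of the 9892 genes (2.07%). In the same window the 56 genes that also had a ratio of at least 6 but stayed under 100 FPKM in Jonagold had a median CV of 26.2% and a library apart in 17.9%. Among the 48 members with at least 100 reads in every Granny Smith library the median CV was 28.0%, and 27.1% had a library apart.

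Replicates 1 and 2 of Granny Smith were each high for a different subset of members, and replicate 3 was low for most. Replicate 1 was the highest Granny Smith library in 52 members (60.5%), replicate 2 in 30 and replicate 3 in 4. Replicate 3 was the lowest in 49 members (57.0%). Within the window replicate 1 was highest in 76.2% of the 42 members and in 39.4% of the 9892 other genes. Replicate 3 was lowest there in 57.1% and 30.5%. In the 56 genes with a ratio of at least 6 but under 100 FPKM in Jonagold these shares were 60.7% and 50%. This order of the libraries was thus not particular to the members. The median level of the members over the cultivar mean was 1.15, 1.02 and 0.746 in Granny Smith replicates 1, 2 and 3. Over the 223 genes of at least 100 FPKM in both cultivars with a ratio of 0.8 to 1.2, replicate 3 was lowest in 51.6% too, but there at 0.954 of the cultivar mean. Replicate 3 was thus lowest about as often in the members as in these 223 genes and lay further below the mean in the members.

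In all, 36 of the 86 members (41.9%) had 1 Granny Smith library more than 2-fold from both others. These include MD00G1105100 (2, 0 and 0 reads), MD12G1232100 (1, 1 and 0 reads) and MD17G1179700 (0, 4 and 0 reads), where a library apart says little. Granny Smith replicate 1 was more than 2 times both others in 14 members, among them MD08G1232200, MD08G1143200, MD01G1166700 and MD16G1035500. Replicate 2 was more than 2 times both others in 13, among them MD13G1161400, MD16G1160500, MD11G1189000, MD06G1096500 and MD16G1160400. Such a high replicate 1 or replicate 2 was seen in 0.384% and 0.495% of the 9892 other genes of the window above. That window does not span the levels of all 86 members. MD08G1143200 shows the contrast in spread between the cultivars. It had 616, 598 and 601 FPKM in Jonagold, against 18.1, 7.29 and 5.92 FPKM in Granny Smith. At the wide end, MD15G1302200 had 130, 165 and 177 FPKM in Jonagold and 0.0508, 0.728 and 0.0957 FPKM in Granny Smith, and its ratio of 540 became 2151 without Granny Smith replicate 2. Of the 11 members with a Jonagold library apart, 10 also had a Granny Smith library apart, and 49 members had neither. MD00G1105100 and MD12G1232100, with few Granny Smith reads, are among the 10.

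**Figure D4:**
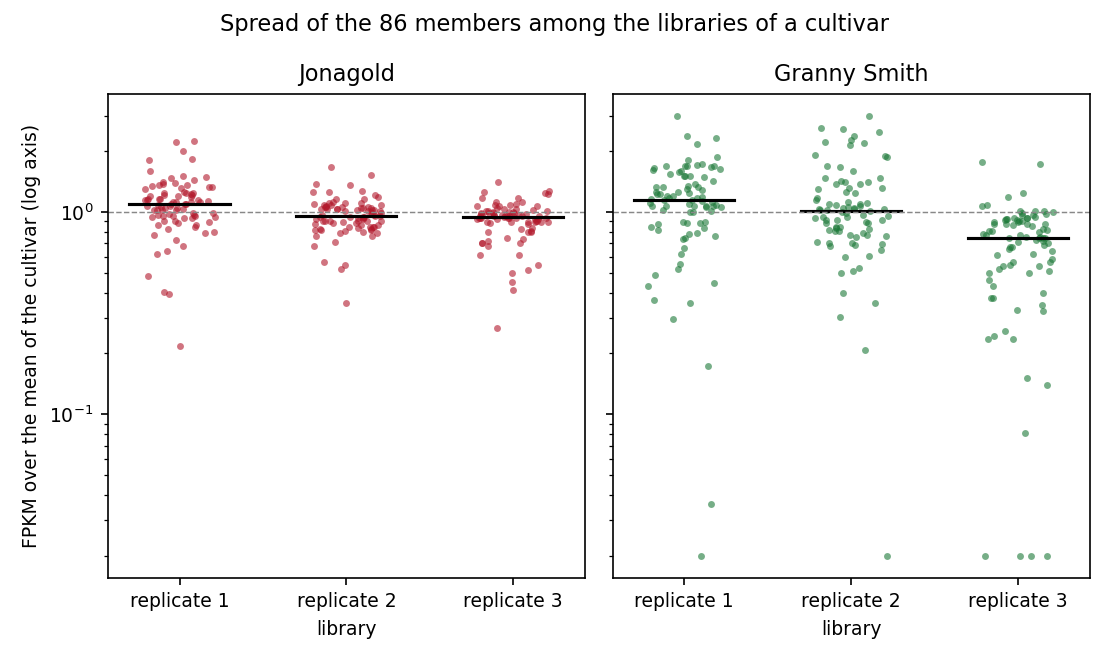
FPKM of each member in a library divided by its mean over the 3 libraries of the cultivar (vertical, log axis), for the Jonagold libraries on the left and the Granny Smith libraries on the right, with black bars at the medians and values of 0 drawn at the foot of the axis. The Jonagold medians lie between 0.9497 and 1.097, and the Granny Smith medians at 1.15, 1.02 and 0.746, with a wider scatter.

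Since means over all libraries chose the members, the choice was repeated on 2 libraries of each cultivar and the ratio was read in the 2 libraries left out, for all 9 pairs of left-out libraries. The reduced sets held 82 to 103 genes, of which 75 to 85 were members. In the left-out libraries 70.9% to 93.3% of the chosen genes had a ratio of at least 6, with a median of 88.8% over the 9 pairs. Among all genes of at least 100 FPKM in the choosing Jonagold libraries the share was 8.92% to 12.2%. The median ratio in the left-out libraries, with genes at 0 in the Granny Smith library read counted as highest, was 9.24 to 37.5, against 16.8 to 19.3 in the libraries that chose. It was lowest whenever Granny Smith replicate 1 was the library read, at 14.4, 9.24 and 9.45, and highest within each Jonagold library when Granny Smith replicate 3 was read, at 37.5, 26.8 and 24.8. The 9 pairs share libraries and are not independent. The thresholds were also set with results from all these libraries known, so the shares are a description and were not tested.

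The identifiers name a chromosome and are numbered along it. Members were found on all 17 chromosomes, and 5 carried the prefix of sequence not placed on a chromosome. Of all 979 genes of at least 100 FPKM in Jonagold, 86 were members. Chromosome 15 had the most members, 10 of 93 such genes (10.8%), and also the most such genes. Chromosome 10 followed with 8 of 58 (13.8%), chromosome 2 with 7 of 53 (13.2%) and chromosome 11 with 7 of 61 (11.5%). The share was largest in sequence not placed, at 5 of 27 (18.5%). No test was made of these shares. The abundance was placed otherwise. Chromosome 16 held 6 members and 27.7% of the members' summed FPKM in Jonagold, chromosome 2 held 23.2% and chromosome 8 held 15.7%, which follows from where the 3 most abundant genes lie.

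**Figure D5:**
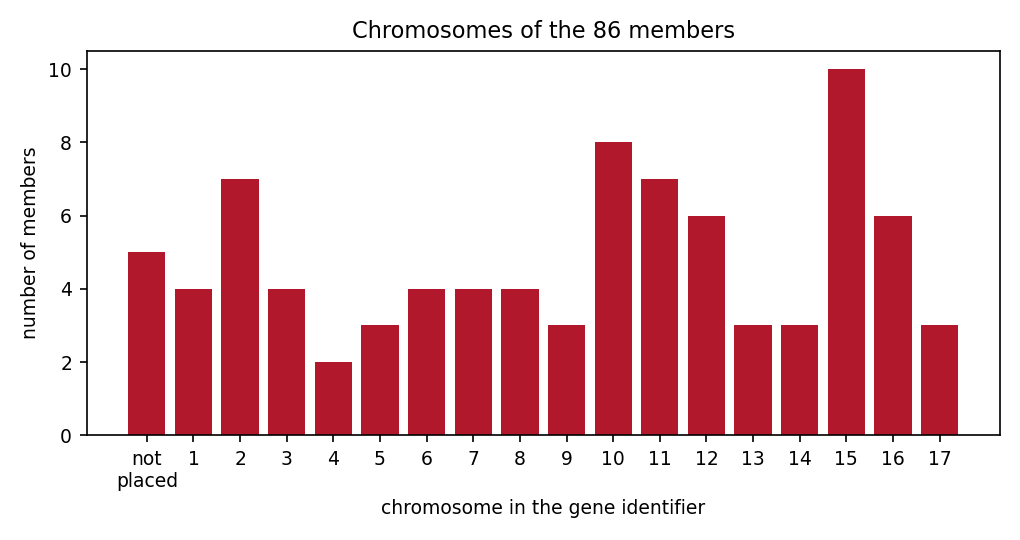
Number of members (vertical axis) by the chromosome named in the gene identifier (horizontal axis), with genes not placed on a chromosome at the left. The counts run between 2 on chromosome 4 and 10 on chromosome 15.

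Among the 81 members on chromosomes, only MD16G1160400 and MD16G1160500 had consecutive identifiers. MD16G1160400 had 136, 235 and 190 FPKM in Jonagold, against 0.0697, 4.996 and 0.722 FPKM in Granny Smith. Like its neighbour MD16G1160500 it was highest in replicate 2 of Granny Smith, and its ratio of 96.9 became 472 without that library. MD16G1160600 was at 0 in all 6 libraries, and MD16G1160700, the most abundant member, came next. Its neighbour on the far side, MD16G1160800, had 6.85, 13.96 and 14.5 FPKM in Jonagold, against 0, 0.377 and 0.0929 FPKM in Granny Smith. The lengths of 721, 731 and 861 bases of the 3 members in this stretch were alike, and whether they share sequence and reads was not tested.

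Pairs that lay a few identifiers apart were MD01G1213100 and MD01G1213300, MD02G1091500 and MD02G1091800, and MD10G1332700 and MD10G1332900. These pairs were chosen after their values were seen. MD10G1332700 had 455, 357 and 369 FPKM in Jonagold and 38.9, 22.4 and 8.02 FPKM in Granny Smith. MD10G1332900 had 185, 223 and 205 FPKM in Jonagold and 39.9, 23.0 and 9.65 FPKM in Granny Smith. The pair thus differed in level in Jonagold and had nearly the same level in each Granny Smith library. MD02G1091500 had 442, 451 and 380 FPKM in Jonagold and 1.76, 1.88 and 1.26 FPKM in Granny Smith, a ratio of 260, beside the 85.4 of MD02G1091800.

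Most genes next to a member did not share its difference. Of 156 distinct neighbouring genes that were neither members nor left out, 27 were at 0 in all libraries and 86 averaged 1 FPKM or more. Their median ratio was 1.29, and 51 of the 86 lay between 0.5 and 2. A ratio of at least 6, counting a gene at 0 in every Granny Smith library as above it, was found in 13 of the 86 (15.1%), against 5.34% of the 20993 genes averaging 1 FPKM or more, and no test was made of that difference. Those 13 had means of 2.11 to 91.6 FPKM in Jonagold. MD02G1050900 was the 1 at 0 in Granny Smith, with 2.36, 2.10 and 1.87 FPKM in Jonagold. The highest were MD16G1019800, with 99.2, 101 and 74.7 FPKM in Jonagold and 4.04, 4.63 and 3.38 FPKM in Granny Smith, and MD15G1315000, with 60.8, 100 and 110 FPKM in Jonagold and 0.244, 2.10 and 0 FPKM in Granny Smith.

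One member lay next to a left-out gene, and the pair was chosen after its values were seen. MD12G1059400, of 638 bases, had 421, 249 and 277 FPKM in Jonagold and 29.4, 19.7 and 20.9 FPKM in Granny Smith. MD12G1059500, which the study tabulated as an enoyl reductase (ER) of fatty acid synthesis, had 423, 265 and 279 FPKM in Jonagold and 31.7, 19.1 and 24.2 FPKM in Granny Smith. These are the deposited values. The study printed higher ones for this gene, also named FPKM. The levels per length of the neighbours were nearly equal in each library. Whether both identifiers belong to 1 transcript was not tested.

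The transcripts of the members were shorter than those of most expressed genes. The length implied by the FPKM values had a median of 1065.5 bases over the members (range 186 to 3518), against 1269.5 bases over the 880 other genes of at least 100 FPKM in Jonagold and 1564 bases over the 20993 genes averaging 1 FPKM or more. Under 1000 bases were 37 of the 86 members (43.0%), 32.4% of the other abundant genes and 23.9% of the 20993 genes. The 32 genes with the opposite difference were as short as the members, with a median of 1052.5 bases.

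Beside those 32 genes the members were the larger set, but the median gene of each was about as abundant. The median mean level in the higher cultivar was 204 FPKM for the members and 224 FPKM for the 32 genes. At least 1000 FPKM in the higher cultivar was reached by 15 of the 86 members and by 3 of the 32 genes higher in Granny Smith. The median fold between the cultivars was 17.8 for the members and 12.6 for the 32 genes, and at least 100-fold was reached by 18.6% and 15.6% of them. The median CV in the lower cultivar was 40.2% for the members, in Granny Smith, and 27.9% for the 32 genes, in Jonagold. In the higher cultivar the median CV was 16.6% for the members and 18.9% for the 32 genes, so the wide spread of the members was in Granny Smith. These medians describe sets chosen on the same contrast and were not tested.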

How the data were processed

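The authors extracted RNA from pulp, filtered the paired reads, aligned these with the apple genome assembly GDDH13, quantified expression in Cufflinks and deposited FPKM, with 1 column per library. The processing notes deposited with the libraries instead name Bowtie 0.12.2 and the mouse builds mm8 and mm9, and the library kits named there also differ from those of the study, so the upstream steps are uncertain. All 6 columns were used as deposited, and 0 per-sample columns were left unmapped.

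The members and lists were chosen with earlier results of these data known. Means, ratios, CVs and shares were computed in Python 3.11.15 with numpy 2.4.6, pandas 2.3.3 and scipy 1.17.1, and figures were drawn with matplotlib 3.10.9. No statistical test was run, since the contrast chose the members. Genes named in the text were the 12 members highest in Jonagold, the 5 highest in Granny Smith, the 6 with the highest and the 6 with the lowest ratio, the 5 widest in CV in each cultivar, members with consecutive identifiers, members that a source names (there were 0), and the 3 genes nearest outside each threshold. Further names serve as examples of counts and were chosen after their values were seen.

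Reads were recovered as whole multiples of a library factor and a gene length. All 34279 implied lengths were whole within 0.01 base. On simulated data of 33425 genes, reads were recovered for 100% but for a divisor common to all libraries, and exactly for 99.1% of the 23490 genes above 0 in all 6 libraries. The exact 95% intervals of pooled read ratios are Clopper-Pearson intervals on the recovered reads, with no floor applied. The limit of 3 reads served only to count members at the floor in every Granny Smith library. The recovered reads were 1.09 to 1.13 times the million-read denominator implied by the FPKM values in Jonagold, against 0.839 to 0.894 times in Granny Smith. The denominators are thus not the sums of these reads. For MD12G1059500 the values that the study printed as FPKM equal its recovered reads times a factor per library. Those factors stand in the same proportion as the library factors found here. How the authors set them was not tested.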

Additional observations from a re-analysis of the deposited data

How the results depend on the processing

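No paired analysis was possible because no result comes from a test, and nothing in the labels ties a Jonagold library to a Granny Smith library of the same number. With the libraries set to equal FPKM totals, which shifts the median log2 ratio of all genes to −0.34 against 0.01 as deposited, 64 of the 86 members were left, all of them among the 86, and MD16G1160700 was lost at a ratio of 5.42. They held 8.75% of summed FPKM in Jonagold and 0.644% in Granny Smith, and 63 of the 64 had no overlap, the exception being MD13G1161400. Median-of-ratios size factors left all 86 members, but they hardly change the deposited scale, with a median log2 ratio of 0.0069 against 0.0052 as deposited. With at least 200 FPKM in Jonagold 44 members remained, 44 of them without overlap, with a Jonagold share of 11.6%. With at least 50 FPKM there were 149, of which 147 had no overlap. A ratio of at least 10 gave shares of 6.95% in Jonagold and 0.373% in Granny Smith and a median ratio of 37.5. A ratio of at least 4 gave 14.3%, 1.84% and 10.2 for the same measures. Counted in recovered reads the shares were 9.58% and 0.953%, and with the left-out genes kept the Jonagold share was 17.8%. These moves follow from the thresholds and scales themselves. Leaving out each library in turn gave 84 to 99 members, of which 77 to 85 were among the 86, and Jonagold shares of 12.1% to 12.97%. The count was highest without Granny Smith replicate 1. Of 286 alternative ratios for the 29 members named by the rule, 16 moved by more than the spread among libraries. That 0 fell below 1 follows largely from the choice of members. The spread was the combined CV of both cultivars times the ratio. It can exceed the ratio itself, as for MD00G1105100 with 5477 on a ratio of 2700, so a move within it says little about steadiness. Ratios that divide by 0 in Granny Smith were not counted. MD00G1105100 had a ratio of 1066 without Jonagold replicate 1 and none without Granny Smith replicate 1, and MD17G1179700 had none without Granny Smith replicate 2. Depth limits the ratios of the 2 members with 3 reads or fewer in every Granny Smith library.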
